A study of Mus musculus with 34 samples.

Results

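The islands described here are CpG islands of the mouse genome whose array probes were annotated mostly to a single promoter. They were chosen from the annotation that the array carries, with no measured value. Probes lying at most 500 bases apart were joined into islands of at least 3 probes, and an island was kept where the class PROMOTER was the most common class among its probes. Islands on chromosomes X and Y, 65 in number, were dropped. This left 2394 promoter islands of the 13616 islands scored on every array, of which 13240 lie on autosomes. They carry the names of 2277 genes, and 101 genes have more than 1 such island, so that 218 islands share a gene with another. A promoter island held a median of 6 probes, with a range of 3 to 34, and spanned a median of 708.5 bases. In 908 islands every probe was classed as PROMOTER, whereas 1469 also held probes inside the gene. Another 775 autosomal islands, in which PROMOTER was tied with a different class, were not counted as members.

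Methylated DNA was pulled down from sheared DNA with an antibody against methylcytosine (mDIP), and the bound DNA and the input DNA were hybridised together to the array. The score of an island is the mean, over its probes, of the log10 ratio of bound over input after each array was brought to a mean of 0 and an SD of 1. A score of 0 is therefore the mean probe of that array. Of the 34 arrays, 16 hold adult tissue from mice aged 3 months, 2 arrays for each of brain, colon, pancreas, kidney, liver, lung, muscle and spleen. Both pancreas and both colon arrays are from males, both lung arrays from females, and the other tissues have 1 array of each sex. Whole embryos were measured at 8.5, 9.5, 10.5, 11.5 and 12.5 dpc with 1 array each, and the oldest is female whereas the others are male. Undifferentiated ES cells are the lines EB5, J1 and TT2 with 1 array each. Differentiated ES cells comprise embryoid bodies and retinoic acid treated cells, labelled as TT2, and 2 arrays of definitive endoderm and 1 of mesoderm from EB5, which were sorted by reporters for Gsc and Sox17 after exposure to activin. Both teratomas are labelled as generated from J1. By the methods, teratomas were grown in immunodeficient host mice, and cells of the host can be part of such a tumour. Sorted β cells, the insulinoma line Min6 and the glucagonoma line αTC had 1 array each. The sources disagree in places. The methods name J1 as the parent of the retinoic acid culture and name other lines for the teratomas. Groups of ES cells thus mix lines and protocols, and each array stands for 1 culture. A score is an average over all cells of a sample, so that partial methylation in all cells and full methylation in a few cannot be told apart.

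Most CpG islands at promoters are kept free of methylation in all normal cells, which leaves the gene open to control by transcription factors. Known exceptions are the promoters of germline genes, which are silenced by methylation in somatic cells, and those of imprinted genes, where 1 parental copy is methylated. ES cells in culture can gain methylation at islands that stay free of it in the embryo, and imprints can be lost there.

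The letters of 6 promoters show what such an island looks like. They were chosen because the results below turn on them, and they are the first 250 bases upstream of the start in the RefSeq table of GRCm38.p6, written 5′ to 3′ on the strand of the gene with each CG in capitals. The build of the array's own positions is not named, so positions from this table and from the array are not to be set side by side. Tuba3a, which encodes an α-tubulin of the testis, had one of the highest scores in every sample. Mcts2, an imprinted retrogene, had a high score in tissues and embryos and a low one in cultured ES cells. Trpm6, a magnesium channel, and Lekr1 were high in the differentiated cultures. Rbm48, a splicing factor of minor introns, and P4hb, a protein disulphide isomerase, stayed low on every array.
Tuba3a, chr6:125286082-125286331, minus strand: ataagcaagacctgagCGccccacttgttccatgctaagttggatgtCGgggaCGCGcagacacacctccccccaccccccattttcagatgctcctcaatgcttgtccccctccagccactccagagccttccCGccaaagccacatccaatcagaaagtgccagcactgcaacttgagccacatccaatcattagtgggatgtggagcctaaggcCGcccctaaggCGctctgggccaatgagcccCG
Mcts2, chr2:152686898-152687147, plus strand: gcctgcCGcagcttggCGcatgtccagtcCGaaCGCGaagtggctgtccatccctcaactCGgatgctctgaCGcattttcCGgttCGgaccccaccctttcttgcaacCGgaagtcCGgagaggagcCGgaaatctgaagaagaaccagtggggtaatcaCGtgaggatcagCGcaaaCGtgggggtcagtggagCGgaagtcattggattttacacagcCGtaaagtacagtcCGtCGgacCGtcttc
Trpm6, chr19:18749480-18749729, plus strand: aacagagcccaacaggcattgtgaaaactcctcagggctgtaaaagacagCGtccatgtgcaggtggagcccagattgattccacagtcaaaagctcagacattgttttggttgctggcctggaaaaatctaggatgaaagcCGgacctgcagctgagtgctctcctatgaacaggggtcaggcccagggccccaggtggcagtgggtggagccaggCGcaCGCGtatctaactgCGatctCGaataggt
Lekr1, chr3:65665978-65666227, plus strand: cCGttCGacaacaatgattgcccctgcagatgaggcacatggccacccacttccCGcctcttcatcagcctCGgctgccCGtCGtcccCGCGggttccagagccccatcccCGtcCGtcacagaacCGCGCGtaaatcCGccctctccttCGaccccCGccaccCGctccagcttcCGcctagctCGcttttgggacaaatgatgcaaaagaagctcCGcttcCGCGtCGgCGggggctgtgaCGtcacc
Rbm48, chr5:3596548-3596797, minus strand: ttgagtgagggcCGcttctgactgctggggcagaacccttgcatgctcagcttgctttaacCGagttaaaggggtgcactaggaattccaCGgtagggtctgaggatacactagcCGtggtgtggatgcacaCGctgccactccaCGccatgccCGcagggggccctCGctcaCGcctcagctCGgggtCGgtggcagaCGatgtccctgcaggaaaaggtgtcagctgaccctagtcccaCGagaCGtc
P4hb, chr11:120573254-120573503, minus strand: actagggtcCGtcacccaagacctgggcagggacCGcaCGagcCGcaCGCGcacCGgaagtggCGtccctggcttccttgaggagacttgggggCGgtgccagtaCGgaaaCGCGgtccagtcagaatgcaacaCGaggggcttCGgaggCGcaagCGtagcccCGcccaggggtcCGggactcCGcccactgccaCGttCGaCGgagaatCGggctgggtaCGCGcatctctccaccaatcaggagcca

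These stretches hold 8 CG in Tuba3a, 20 in Mcts2, 7 in Trpm6, 25 in Lekr1, 14 in Rbm48 and 25 in P4hb. The most methylated promoter of the 6 and the promoter of Trpm6 are thus the poorest in CG, whereas Mcts2 and Lekr1 are as rich in it as P4hb or nearly so.

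The array labelled J1 stood apart and is named in the comparisons of undifferentiated ES cells. It also enters the spread that the group comparisons below share, so the other comparisons rest on it in that part. Their counts without it are not given here. Over the promoter islands its nearest array was the second pancreas array (r = 0.913), and its mean correlation was 0.818 with the adult arrays and 0.700 with the other arrays of undifferentiated ES cells. Over all probes its scanner values correlated by only 0.113 with the authors' processed values of the same array, whereas those of the other arrays did so by 0.894 to 0.991. Its processed values in turn correlated by at most 0.133 with those of any other array, while over the promoter islands its scanner values correlated by 0.903 with the processed values of the second pancreas array. Whether the scanner values under this label come from undifferentiated ES cells was therefore not settled, and each value over all 3 ES cell arrays carries that doubt. For 3 adult arrays, the second of pancreas and the first of brain and of muscle, the nearest array was the one labelled J1. The brain and muscle arrays were scanned on the same day as that array, and the pancreas array on another day. Arrays lie on 23 slides scanned on 16 days, and the input signal was 3.07 to 7.34 times its background. Of 28 marker genes listed for tissues and cell types, only Neurod1 has a promoter island, so the labelled tissues could not be checked in this class. Both colon arrays were nearest to each other, which held for no other tissue, and 13 of the 16 adult arrays were nearest to an adult array. These correlations are over the 2394 islands of 2 arrays and carry no p.

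Promoter islands had low scores in normal tissue. The median over islands of the adult mean was -0.27, against -0.22 for all autosomal islands, with -0.43 and -0.060 at the lower and upper quartile. A score below 0 on all 16 adult arrays was found for 838 promoter islands (35.0%, exact binomial 95% interval 33.1 to 37.0, which covers counting error only). The scaling moved it farther than that, to 18.1% with 1 SD common to all arrays and 46.6% in the authors' processed table. That share was 30.6% of all autosomal islands, 39.6% of the 278 islands at divergent promoters and 30.7% of the 7514 islands inside genes. A score above 0.75 on every adult array was found for 46 promoter islands (1.92%, interval 1.41 to 2.55). Over islands of at least 5 probes it was 0.744%, with normexp 0.835%, and over islands whose probes are all PROMOTER 4.52%. Above 0.75 on every adult array were 7.40% of all autosomal islands, 9.82% of those inside genes, 8.54% downstream of genes and 1.08% at divergent promoters. The remaining 1510 promoter islands met neither condition. The spread between adult arrays was like that of other islands, with a median SD of 0.211 against 0.218.

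The shortage of high scores at promoters held on each array taken alone. On adult arrays 4.18% ± 0.79 (SD, n = 16) of promoter islands had a score above 0.75, against 13.8% ± 0.95 of islands inside genes. The promoter share was the lower one on 34 of 34 arrays against islands inside genes, downstream of genes and of unknown class. It was the higher one on 34 of 34 arrays against islands at divergent promoters and islands of tied class. In embryos the promoter share was 3.49% ± 0.32 (SD, n = 5), and in undifferentiated ES cells 4.97% ± 0.55 (SD, n = 3). In differentiated ES cells it was 7.90% ± 1.24 (SD, n = 5), and the lowest of these arrays, with 5.93%, stood above the highest adult array, with 5.43%. The teratomas had 3.76% and 3.88%, the sorted β cells 5.30%, Min6 12.4% and αTC 14.7%. Islands inside genes moved alongside, with 17.7% ± 1.76 in differentiated ES cells and 25.4% in αTC, so that the rise was not tested as particular to promoters.

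**Figure D1:**
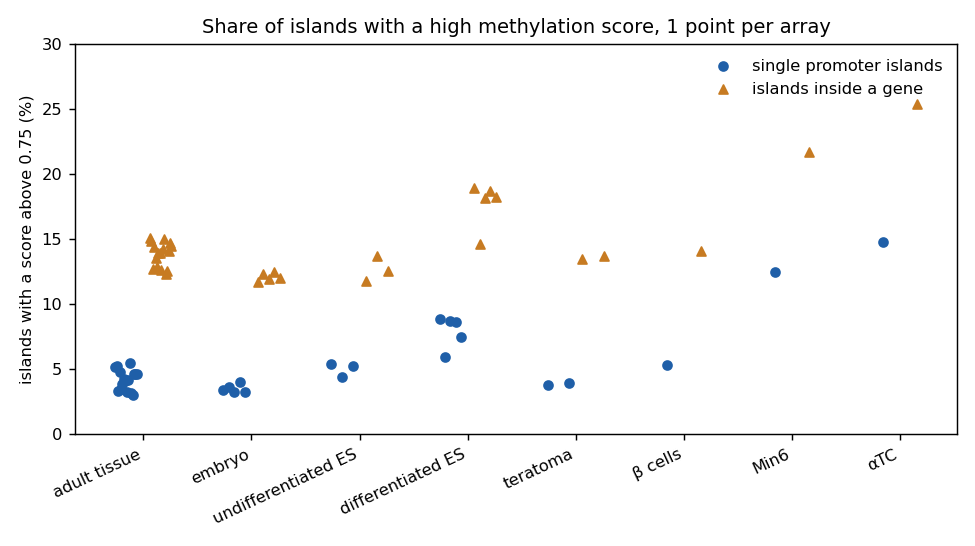
Share of islands with a score above 0.75 (y axis, percent) on each of the 34 arrays, with 1 point per array and the sample groups along the x axis. Circles are single promoter islands and triangles are islands inside a gene; on every array the circle lies below the triangle, and the 5 differentiated ES cell arrays (5.93% to 8.81%) lie above the 16 adult arrays (3.01% to 5.43%).

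The promoter islands that were most methylated in normal tissue belong to genes of unlike function. The 6 islands with the highest score on their lowest adult array were, in no order of rank, Eppk1, Tuba3a, Abcd2, Ankrd50, Ctnnd1 and Pcdha4. Eppk1 encodes epiplakin, a linker of the epithelial cytoskeleton, and its adult scores ran from 2.64 to 4.31 with a median of 3.52. Tuba3a ran from 2.79 to 4.12 with a median of 3.38. Abcd2, a peroxisomal transporter of very long chain fatty acids, ran from 2.68 to 3.87 with a median of 3.35. The islands of Abcd2 and Ctnnd1 (p120 catenin, a partner of cadherins) lie far from the start, at 7629 and 8180 bases, whereas that of Tuba3a begins 6 bases from it. Of the 46 islands above 0.75 on every adult array, 41 stayed above it on all embryo arrays, 37 on all 3 arrays of undifferentiated ES cells, 39 on all differentiated arrays and 46 on both teratomas. Sorted β cells, Min6 and αTC each kept 45. The germline genes measured here show the class: 4 of 5 were above 0.75 on every adult array. Tdrd1, a tudor protein of the piRNA pathway, had adult scores from 2.13 to 3.52 with a median of 2.60. The meiotic gene Hormad1 had an adult mean of 2.76 ± 0.39, and the testis bromodomain gene Brdt 2.31 ± 0.94 (SD, n = 16 for both). The exception was Sycp2, a protein of the synaptonemal complex, with 0.81 ± 0.34.

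At the low end, the islands with the lowest maximum over the adult arrays were Rbm48, Ciao2b, Ermard and P4hb, and all lie within 140 bases of the start. Rbm48 ran from -1.39 to -0.73 with a median of -0.86 in adult tissue. P4hb ran from -0.98 to -0.58 with a median of -0.69. Ciao2b, a factor of cytosolic iron-sulphur protein assembly, ran from -1.56 to -0.65 with a median of -0.97. In the cultures these islands stayed as low: P4hb scored -1.31, -0.59, -0.97, -0.94 and -0.90 on the arrays of embryoid bodies, retinoic acid treated cells, both endoderm arrays and mesoderm, in the order used from here on. In Min6 and αTC, where more promoter islands were high than in any other sample, P4hb scored -1.11 and -1.19.

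Methylation scores rose with the distance of an island from the start of its gene. The nearest upstream probe lay at a median position of -98 relative to the transcription start and at most at -9722; for 1720 islands (71.8%) it was within 500 bases, and for 473 it was beyond 2000. On adult arrays the mean score was -0.25 ± 0.035 (SD over 16 arrays) for the 1212 islands within 100 bases. It was -0.28 ± 0.022 for the 365 islands at 100 to 200 bases and -0.17 ± 0.032 for the 143 at 200 to 500. Farther out it was -0.11 ± 0.066 for the 81 islands at 500 to 1000, -0.011 ± 0.074 for the 120 at 1000 to 2000 and -0.027 ± 0.064 for the 227 at 2000 to 5000. For the 246 islands at 5000 to 10000 bases it was 0.12 ± 0.044, and the lowest adult array there, at 0.027, stood above the highest one of the nearest islands, at -0.19. Scores above 0.75 on every adult array were held by 9 of the nearest islands (0.743%) and 20 of the farthest (8.13%). The differentiated cultures lay closest to adult tissue at 200 to 500 bases and farther above it away from the start, at 0.089 ± 0.052 for 1000 to 2000 bases, 0.067 ± 0.041 for 2000 to 5000 and 0.20 ± 0.027 for the farthest islands (SD, n = 5), and these differences in bin means were not tested. Embryos lay below adult tissue at 2000 to 5000 bases, with -0.15 ± 0.055 (SD, n = 5). Probe number fell along the same axis, from a median of 7 to 5 probes an island. In 634 islands with at least 3 probes on each side of the start, upstream and inside probes had the same level in adult tissue, -0.287 for both, and inside probes were the higher ones on 8 of 16 arrays. In the differentiated cultures inside probes were lower on 5 of 5 arrays, by a mean of 0.027 ± 0.025 (SD).

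**Figure D2:**
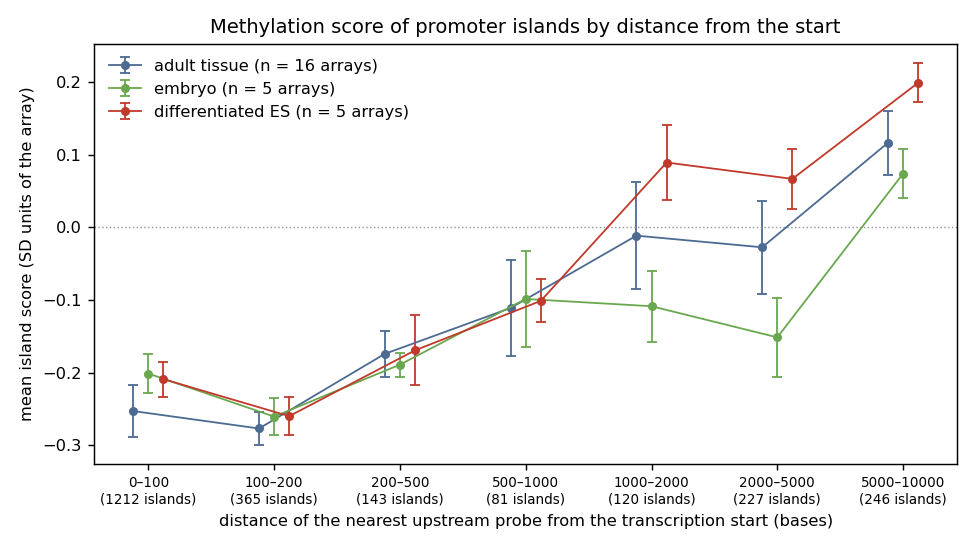
Mean score of promoter islands (y axis, in SD units of the array) by the distance of the nearest upstream probe from the transcription start (x axis, in bases, with the number of islands in each bin). Points are means over the arrays of a group and bars are SD over arrays; the nearest 1212 islands averaged -0.25 and the farthest 246 averaged 0.12 on adult arrays.

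Promoters of the members were rich in CG, as an array of CpG islands implies by its design. The contrast with all windows given here is therefore no finding about the members. For 1044 islands with a probe within 250 bases and 1 window in the RefSeq table of GRCm38.p6, which runs from 250 bases before the start to 50 after it, the median was 26.5 CG per window. The 32851 windows of the whole table had a median of 7. The observed over expected ratio of CG was 0.855 against 0.384, and the G+C content 65.7% against 52.7%. Letters of known promoter elements, searched on both strands, were found in different shares. TATAAA was present in 3.16% of the 1044 windows and 13.6% of all windows. The Sp1 motif GGGCGG, which often holds a CG-rich promoter free of methylation, was present in 74.9% and 35.7%. CCAAT, the letters of the NF-Y box, was present in 38.7% and 37.4%. The Ets letters CCGGAAG were present in 17.9% and 8.86%, the NRF1 letters TGCGCA in 15.8% and 7.76%, and the E-box CACGTG in 10.9% and 7.15%. The 437 windows of islands below 0 on every adult array had a median of 27.0 CG, and the 7 windows of islands above 0.75 on every adult array had 23.0, with a range of 12 to 31. These are descriptions of letters, and no factor was measured. Every motif here except TATAAA and CCAAT itself holds a CG, so that its share is not independent of the CG count.

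Differentiated ES cells differed from adult tissue at 19.9% of the promoter islands, and more of these were higher than lower. Of 2394 promoter islands, 476 were called at an adjusted p under 0.05 in a limma fit over all 13616 islands (percent called over all islands 23.2). There were 321 higher ones (over all islands 14.4% were called higher) and 155 lower ones (8.73% were called lower). The share of members called was thus somewhat under that of all islands. The median difference over all members was -0.0036, against -0.0099 over all islands, on arrays that were each centred to a mean of 0. It was -0.048 with 1 SD common to all arrays, -0.0022 in the authors' processed table and 0.038 with normexp. Among these settings its sign turned with normexp only. Among islands called higher the median difference was 0.57, and among those called lower -0.37; over all islands these were 0.61 and -0.46. Islands called higher had a median adult mean of -0.22 and a median of 0.40 in the differentiated cultures, and 28 of them went from a mean below 0 to a mean above 0.75. Of the islands called lower, 110 had an adult mean below 0 already and 30 had one above 0.75. No overlap between the 16 adult and 5 differentiated arrays was seen in 56 higher and 16 lower members (percent of all islands called without overlap 3.41). Calls were as frequent near the start as in the next bins, with 18.2% of islands within 100 bases, and reached 28.0% at 5000 to 10000 bases.

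Some of the arrays share a slide, which allows a difference to be taken within it. For the second endoderm array and the first pancreas array, 311 of the 321 higher members and 151 of the 155 lower ones kept their sign. For embryoid bodies and the second brain array these counts were 293 and 146, and over all members 1103 and 1043 of the 2394 differences were above 0 in the first and second pair. These arrays were also part of the fit. With the slide as a block 315 members were called, and with normexp, a model-based background correction of the raw signals, 251, of which 83.7% were higher as against 67.4% in the fit reported. Islands that were high in all tissues had lower scores in the cultures. The 46 promoter islands chosen for a score above 0.75 on every adult array had a median difference of -0.52, and -0.88 with 1 SD common to all arrays. They were chosen on adult values that enter the difference, so that this is a description with no test. Islands above 0.75 were more frequent on the same arrays, and the part of the scaling in these lower values was not tested beyond that change of scale and centre.

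**Figure D3:**
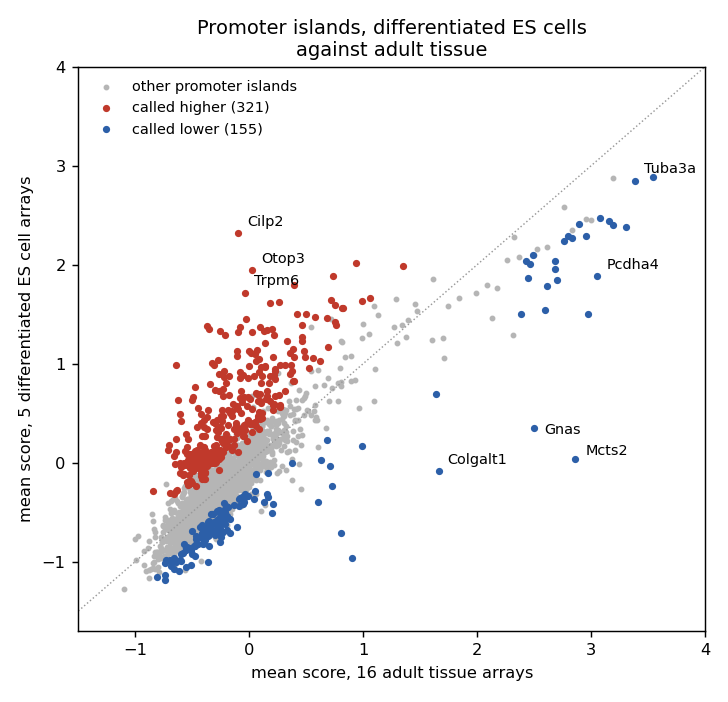
Mean score on the 16 adult arrays (x axis) and on the 5 differentiated ES cell arrays (y axis) for the 2394 promoter islands, both in SD units of the array, with a dotted line of equality. Red points are the 321 islands called higher and blue points the 155 called lower in differentiated ES cells; the 8 named islands include Cilp2, Otop3 and Trpm6 above the line and Mcts2, Gnas and Colgalt1 below it.

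The islands that stood farthest above adult tissue belong to a matrix protein, channels, transporters, a metabolic enzyme and homeobox genes. The first was Cilp2, a protein of the cartilage matrix (chromosome 8, 72818103 to 72818384 in the array's positions, 3 probes, 1449 bases upstream). In adult tissue it scored from -0.50 to 0.76 with a median of -0.10. The differentiated cultures scored 2.75, 1.99, 1.57, 2.49 and 2.78. All 5 were above every adult array, the embryos lay between -0.21 and 0.23, and the teratomas at 0.035 and 0.27 stayed with adult tissue. The difference was 2.42 with an SE of 0.22 (adjusted p = 2.64e-09). A second island of Cilp2, 179 bases upstream, rose by 1.31 (adjusted p = 2.05e-10). Otop3, a proton channel, has an island that begins 64 bases from the start (chromosome 11, 115150602 to 115151022). It ran from -0.43 to 0.49 with a median of 0.041 in adult tissue and scored 2.51, 1.89, 1.60, 1.81 and 1.91 in the cultures, a difference of 1.92 with an SE of 0.21 (adjusted p = 6.98e-08). Embryos, at 0.78, 0.71, 1.03, 0.48 and 0.62 from the earliest to the latest, lay below the cultures and above the adult range, except that of 11.5 dpc, which lay just inside it. For Trpm6, whose letters are printed above (chromosome 19, 18816734 to 18817092), adult tissue ran from -0.80 to 0.62 with a median of 0.058 and the cultures scored 1.71, 1.54, 1.97, 1.88 and 1.48. The groups did not overlap, and the difference was 1.75 with an SE of 0.20 (adjusted p = 1.13e-07). Embryos stayed at or below -0.057, and both pancreatic lines were high, at 1.79 and 1.47.

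Homeobox genes were among them. Nkx2-5, which specifies the heart, has 2 promoter islands. The one that rose lies 2584 bases upstream (chromosome 17, 26571709 to 26572481, 9 probes). Adult scores ran from -0.77 to 0.15 with a median of -0.39, and the cultures scored 0.78, 1.19, 2.15, 1.45 and 1.16. Endoderm array 1 was the highest and embryoid bodies the lowest, still above every adult array. The other island of Nkx2-5, 8157 bases upstream, was not called, with a difference of 0.12 (adjusted p = 0.452). Nkx6-2, a factor of the neural tube and of oligodendrocytes (chromosome 7, 139435773 to 139436639), ran from -0.94 to 0.51 with a median of -0.39 in adult tissue and scored 1.29, 1.38, 1.75, 1.97 and 0.54 in the cultures. Mesoderm lay just above the highest adult array. The differences were 1.70 and 1.75 (adjusted p = 1.84e-06 and 3.52e-07). Slc32a1, the transporter that loads GABA into vesicles, scored 0.65, 0.67, 1.74, 1.56 and 0.32 in the cultures against at most -0.20 in adult tissue, a difference of 1.63. Nags makes the activator of the urea cycle and scored 1.43, 1.18, 1.95, 1.26 and 0.79 against at most 0.31, a difference of 1.58. Lekr1 scored 1.32, 0.31, 2.01, 1.62 and 1.16 against at most 0.19, a difference of 1.50. In Lekr1 the retinoic acid culture was the low one, close to adult tissue, while the other 4 were above 1.16 or at it. A second island of Lekr1, 6577 bases upstream, was not called (difference -0.079, adjusted p = 0.514).

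Among the islands that fell, imprinted genes stood first. Mcts2 is a retrogene expressed from the paternal copy, whose maternal copy is methylated (chromosome 2, 152378168 to 152378759, 5 probes from 37 bases upstream). In adult tissue it scored from 2.09 to 3.64 with a median of 2.85. The differentiated cultures scored -0.33, -0.077, 0.70, 0.15 and -0.26. Embryos scored 2.43, 2.99, 2.99, 2.84 and 3.05, the teratomas 1.74 and 1.90 and the sorted β cells, Min6 and αTC 1.74, 1.85 and 1.58. Every culture thus lay far under every tissue and embryo, with the teratomas in between. The difference from adult tissue was -2.82 with an SE of 0.36 (adjusted p = 8.44e-07). Undifferentiated EB5 and TT2 cells were low already, at 0.23 and -0.79, while the array labelled J1 scored 3.38, as adult tissue does. Gnas, the imprinted gene of the stimulatory G protein α subunit (chromosome 2, 173970159 to 173972482, 16 probes from 573 bases upstream), had the same order. It ran from 1.70 to 3.06 with a median of 2.45 in adult tissue and scored 0.94, 0.35, 0.044, 0.20 and 0.19 in the cultures, a difference of -2.15 with an SE of 0.28 (adjusted p = 1.21e-06). EB5 and TT2 scored 0.28 and 0.14, and the array labelled J1 3.07.

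The other islands that fell belong to genes of different function. Colgalt1, which adds galactose to collagen, has its island 8021 bases upstream (chromosome 8, 74531048 to 74531987, 10 probes). Adult scores ran from 0.71 to 2.54 with a median of 1.70, and the cultures scored 0.21, 0.44, -0.58, -0.28 and -0.20, a difference of -1.74 (adjusted p = 2.48e-05). Here the embryos were low as well, from -0.16 to 0.095, so that tissue was the group that stood apart. Pcdha4 and Pcdha10, of the α cluster of protocadherins by which neurons tell themselves apart (islands on chromosome 18), had adult means of 3.05 ± 0.21 and 2.59 ± 0.19 (SD, n = 16). Pcdha4 fell by 1.17 and Pcdha10 by 1.05 in the cultures (adjusted p = 2.4e-05 and 0.000216; with normexp that of Pcdha10 was 0.0764), with the retinoic acid culture lowest in both, at 1.35 and 0.69. Hoxb3, a homeobox gene of the hindbrain, fell by 1.00 (adjusted p = 0.00274), and this call was lost with normexp and when either slide or scan day entered the model as a block, where the difference shrank to as little as -0.17. Its second island was not called, with a difference of -0.026 (adjusted p = 0.884). In adult tissue Hoxb3 ran from -0.040 to 2.00 with a median of 0.41, and in the cultures from -0.57 to -0.15.

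**Figure D4:**
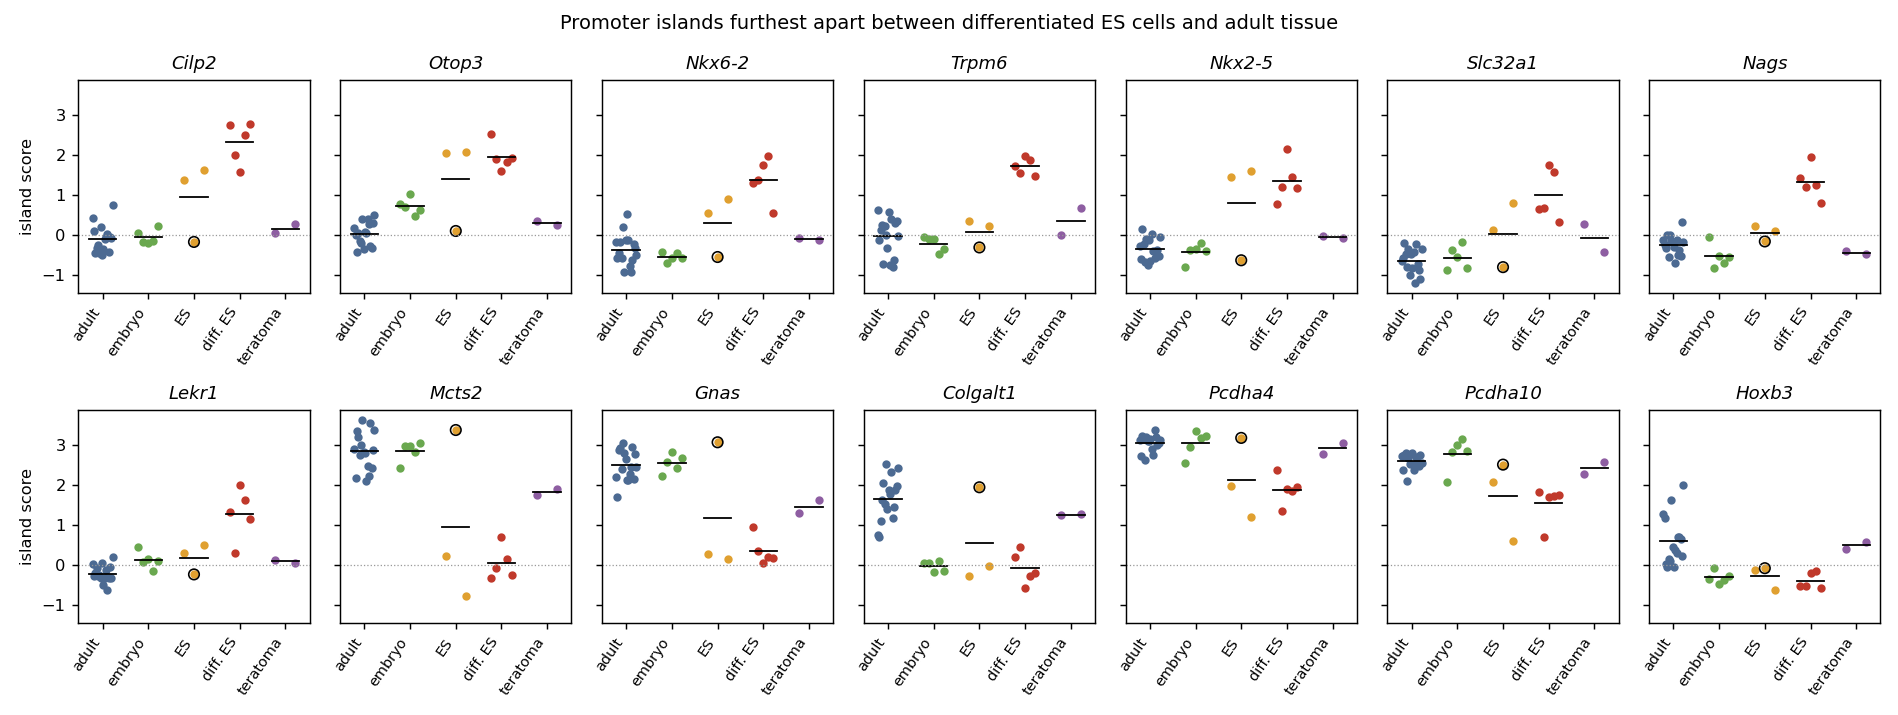
Scores (y axis, in SD units of the array) of the 8 promoter islands farthest above and the 6 farthest below adult tissue in differentiated ES cells, with 1 point per array and the sample groups along the x axis. Black bars are group means and the circled point is the array labelled J1; it lies with adult tissue in Cilp2, Otop3, Nkx2-5, Mcts2, Gnas and Colgalt1, while EB5 and TT2 lie towards the differentiated cultures.

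Gains above 0.75 were also counted among islands that were low in all tissues. Of the 838 promoter islands below 0 on every adult array, 16 exceeded 0.75 on at least 1 differentiated array, and of the 4053 such islands over all autosomal islands 120 did. With 1 SD common to all arrays the count of 16 became 4. That setting also moves the point of 0, so that the islands counted as low in all tissues changed with it. Endoderm had 8 on each array, embryoid bodies 5, mesoderm 3 and the retinoic acid culture 2. No such island was found in EB5, in the array labelled J1 or in the teratomas, 1 was found in TT2 and 1 each in the embryos of 8.5 and 9.5 dpc. Of the 16, 9 were above 0.75 on 1 array, 5 on 2, 1 on 3 and 1 on 4, and 13 were called higher in the comparison with adult tissue. The 16 were chosen on values that enter that comparison. Their calls, including the p-value of Mbd1 below, are thus a description and no separate support for a gain. The island found on 4 arrays was that of Mbd1, a protein that binds methylated CG. It scored 1.00, 0.98, 0.48, 0.90 and 0.98 in the cultures and at most -0.050 in adult tissue, a difference of 1.10 with an SE of 0.087 (adjusted p = 3.14e-10). Tyw5, an enzyme of tRNA modification, scored -0.096, -0.78, 0.90, 1.43 and 1.00, so that both endoderm arrays and mesoderm, all from EB5, were high and both TT2 cultures were low. Fabp3, a fatty acid carrier of heart and muscle, had the same split, with -0.022, -0.19, 1.06, 0.77 and 0.68. Letmd1, a protein of the inner mitochondrial membrane, had its high value in embryoid bodies, with 0.92, 0.097, 0.11, 0.57 and 0.75. Lrrc61 scored -0.12, 0.34, 1.13, 1.28 and 0.54, with both endoderm arrays highest. Line and protocol are the same division in these arrays and cannot be told apart.

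Undifferentiated ES cells differed from adult tissue at few promoter islands, and the count rested on the array labelled J1. With all 3 arrays 29 members were called (1.21%; over all islands 2.3%), of which 23 were higher and 6 lower. Without that array 158 were called (6.60%; over all islands 8.45%), 123 higher and 35 lower. Without EB5 or without TT2 the count was 0. The islands above account for the clearest cases. Otop3 scored 2.05, 0.095 and 2.08 in EB5, J1 and TT2, a difference of 1.38 from adult tissue with all 3 arrays (adjusted p = 0.00627) and 2.04 without J1 (adjusted p = 4.27e-08). Nkx2-5 scored 1.44, -0.64 and 1.59, with differences of 1.15 and 1.87. In both genes EB5 and TT2 had the level of the differentiated cultures, and the J1 array had that of adult tissue. Barhl1, a homeobox gene of neurons, scored 1.59, 0.034 and 1.37 against 1.74, 1.15, 1.55, 1.87 and 1.75 in the cultures and at most 0.44 in adult tissue. For Mcts2 the difference between undifferentiated ES cells and adult tissue was -1.92 with all 3 arrays and -3.14 without J1 (adjusted p = 0.0186 and 6.45e-08). For Gnas it was -1.33 and -2.28. Among islands whose groups did not overlap on all 3 arrays, only Grid1, a glutamate receptor subunit, and Cryzl1, a relative of quinone reductases, were called. Grid1 scored 0.040, -0.086 and 0.00078 against at most -0.19 (adjusted p = 0.0495), a call lost under 9 of 16 alternatives, and Cryzl1 scored -0.18, -0.046 and -0.024 against at most -0.25 (adjusted p = 0.0487), a call lost under 11 of 14.

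Between differentiated and undifferentiated ES cells 100 promoter islands were called (4.18%; over all islands 5.43%), 64 of them higher (3.51% over all islands) and 36 lower (1.92%). Without the array labelled J1 there were 50 (over all islands 3.58%), 31 higher and 19 lower. Without the retinoic acid culture there were 177, without the second endoderm array 63 and with slide blocks 15. The share of called members that were higher was 64.0%, and it was 90% with a common SD, 83.3% with normexp and 29.4% in the authors' processed table, so that the balance of directions was not settled. The share from the processed table rests in part on its values for the array labelled J1. Those correlated by at most 0.133 with the processed values of any other array, and how far they moved the share was not tested. This comparison shares its arrays with those above, so each set of values is given on its own. Trpm6 scored 0.34, -0.32 and 0.22 in EB5, J1 and TT2, all under the lowest differentiated array, a difference of 1.64 (adjusted p = 0.000829) and of 1.44 without J1 (adjusted p = 0.00918). The island of 1600014C10Rik, 9227 bases upstream, scored -0.45, -0.20 and -0.35 before and 1.17, 0.68, 1.88, 1.54 and 0.88 after differentiation, a difference of 1.56 (adjusted p = 0.000151, and 0.00049 without J1). 2410137M14Rik scored -0.14, -0.25 and -0.086 and 1.51, 0.82, 2.05, 1.93 and 1.17, a difference of 1.66 (adjusted p = 0.0054, and 0.0254 without J1). In all 3 islands the retinoic acid culture was among the lower of the 5 cultures. All 3 calls were lost with slide blocks and in the methods' t-test, that of 1600014C10Rik with normexp as well, and that of 2410137M14Rik with a common SD and with scan day. On the lower side stood Adgrl1 (latrophilin, an adhesion receptor of synapses), Herc3 (a ubiquitin ligase) and Strbp (an RNA-binding protein of spermatids). Adgrl1 scored -0.14, -0.071 and -0.26 before and -0.63, -0.85, -0.68, -0.62 and -0.75 after differentiation, a difference of -0.55 (adjusted p = 0.0181). Herc3 and Strbp differed by -0.56 and -0.69 (adjusted p = 0.0205 and 0.0479). None of these 3 calls held without J1, where the adjusted p was 0.0768, 0.0551 and 0.208.

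In embryos the promoter islands that stood out were mostly lower than in adult tissue where the difference was large. In all 193 members were called (8.06%; over all islands 8.64%), 117 higher (5.17% over all islands) and 76 lower (3.47%). The median difference was 0.40 among the higher and -0.61 among the lower ones. The embryos lie on slides of their own, except that of 8.5 dpc, which shares a slide with TT2, so slide and embryo can hardly be told apart: with the slide as a block 1 member was called, with scan day in its place 0, and with a random effect of slide 94. Without the embryo of 8.5, 9.5 or 11.5 dpc the counts were 118, 106 and 120. With 1 SD common to all arrays, 50% of the called members were higher, as against 60.6% here. Mab21l1, a gene of eye development (chromosome 3, 55868068 to 55868675), scored from 0.58 to 2.56 with a median of 1.63 in adult tissue. The embryos, from the earliest to the latest, scored -0.49, -0.50, -0.75, -0.51 and -0.70. They lay below every adult array, with a difference of -2.22 and an SE of 0.32 (adjusted p = 3.24e-05). Strn4, a scaffold of protein phosphatase, has its island 4435 bases upstream. It scored 0.48, 0.57, 0.75, 0.92 and 1.29 in embryos and from 1.57 to 3.95 with a median of 3.02 in adult tissue, a difference of -2.17 (adjusted p = 0.000581). EB5 and TT2 scored 0.43 and 0.22 there, close to the embryos, and the array labelled J1 3.71. The island of 5730596B20Rik, whose function is not known, scored -1.09, -1.01, -0.86, -1.03 and -0.94 in embryos against -0.68 or more in adult tissue, where its spread was wide, up to 2.83.

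Islands higher in embryos moved by less. Rab3a, a GTPase of synaptic vesicles, scored 0.86, 0.95, 0.71, 0.47 and 0.59 against at most -0.067 in adult tissue, a difference of 1.12 (adjusted p = 1.46e-05). Adal, a relative of adenosine deaminase, scored 0.99, 1.13, 0.85, 0.98 and 0.90 against at most 0.32, a difference of 0.85 (adjusted p = 6.77e-08). Both islands were above all adult arrays in all 5 embryos, and none of the embryo calls named so far passed with the slide or the scan day as a block. Against embryos the differentiated cultures had 397 called members (16.6%; over all islands 21.1%), 237 higher (11.8%) and 160 lower (9.29%). With the slide as a block 10 were left and with normexp 98, of which 85.7% were higher as against 59.7% here. This comparison shares its cultures with those above. The clearest islands were Cilp2, Trpm6 and Mcts2, given above, and Tbx4, a T-box gene of the hindlimb. Tbx4 scored 1.76, 2.22, 1.05, 1.58 and 1.67 in the cultures and 0.0047, -0.46, -0.45, -0.35 and -0.16 in embryos, with adult tissue above the embryos and overlapping the cultures, from 0.21 to 1.75 with a median of 1.08. The difference was 1.94 with an SE of 0.26 (adjusted p = 5.03e-06). The island of 1700037H04Rik, which begins 7 bases from the start, scored -0.28, -0.25, -0.58, -0.20 and -0.042 in the cultures and 0.63, 1.03, 1.28, 1.50 and 0.72 in embryos, a difference of -1.30 (adjusted p = 0.0366). That call was lost in 8 of 23 alternatives, with differences from -2.74 to -0.74. No call against embryos named here, including that of Gnas, passed with slide blocks, and those of Trpm6, Tbx4 and Gnas did not pass with scan day either.

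**Figure D5:**
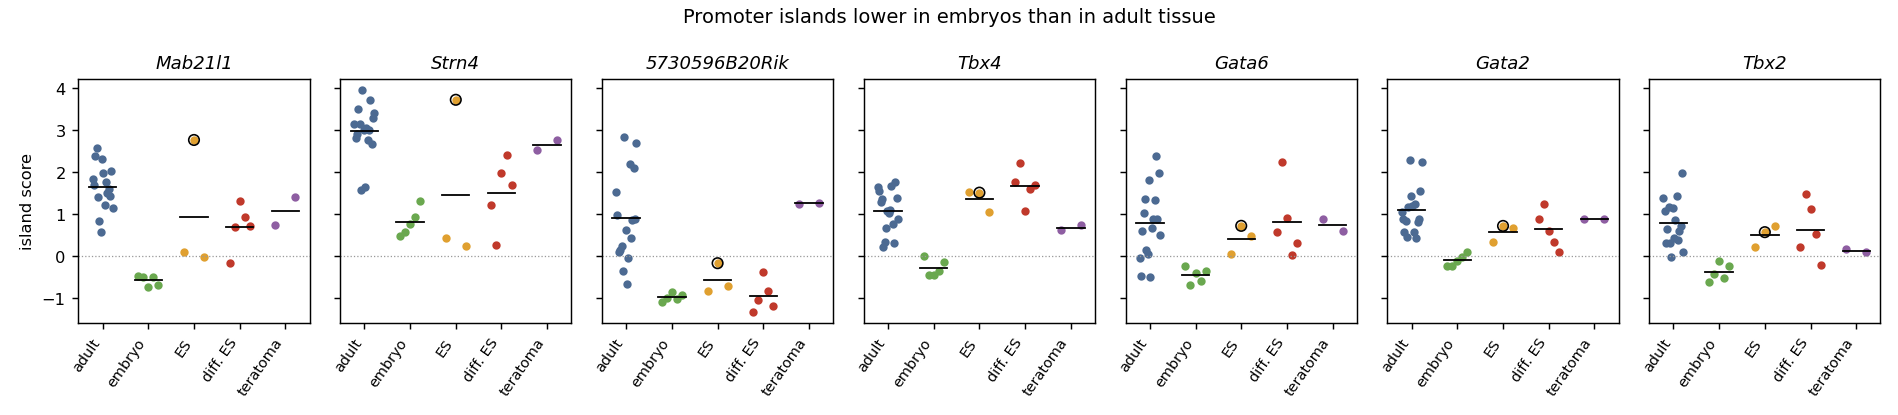
Scores (y axis, in SD units of the array) of promoter islands that were lower in embryos than in adult tissue, with 1 point per array and the sample groups along the x axis: the 3 islands farthest below adult tissue and genes of developmental transcription factors. Black bars are group means and the circled point is the array labelled J1; in Mab21l1 the 5 embryos lie between -0.75 and -0.49 and the adult arrays between 0.58 and 2.56.

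Teratomas and single tissues gave 1 island each. Between teratomas and adult tissue 1 member was called (0.0418%; over all islands 0.191%), while 183 members had an unadjusted p under 0.05. It was the island of Zfp869, a zinc finger gene (chromosome 8, 72645418 to 72645978, 5 probes from 63 bases upstream). The teratomas scored 1.04 and 1.14 and adult tissue from -0.55 to 0.072 with a median of -0.30, a difference of 1.34 with an SE of 0.17 (adjusted p = 6.72e-05). Both teratomas lay above all other arrays at this island. They lie on slides and scan days of their own, so that slide and group cannot be told apart. Among the 8 adult tissues 1 member was called by the F test of limma (over all islands 0.0808%), while 60 had an unadjusted p under 0.05. It was Qk, an RNA-binding protein of splicing and myelination (chromosome 17, 10162981 to 10163761, 7 probes). Colon scored 1.10 and 1.12. The other 14 adult arrays ran from -0.68 to 0.027, the first brain array being the highest of them (adjusted p = 0.043). The call was lost with normexp, in the authors' processed table and with the replicate number as a block.

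Developmental transcription factors were the largest list. Sox1ot and Paxip1 are on it without being such factors, and neither was called against adult tissue in differentiated ES cells or embryos. The list holds 143 promoter islands of 112 genes. In differentiated ES cells 33 were higher and 8 lower than in adult tissue, with a median difference of 0.10 against -0.0036 over the members; 28.7% of the list was called, as against 23.2% of all islands (14.4% higher and 8.73% lower). In embryos 0 were higher and 13 lower than in adult tissue, where 5.17% and 3.47% of all islands were. Against embryos the cultures had 37 higher and 2 lower, where 11.8% and 9.29% of all islands were. With 1 SD common to all arrays the counts against adult tissue were 24 and 6, with normexp 20 and 6, and on the 46 islands scored in the authors' processed table they were 6 and 5. In embryos normexp left 0 higher and 0 lower. Six2, a factor of kidney progenitors, scored 1.17, 2.23, 1.36, 1.14 and 0.69 in the cultures and -0.19, -0.64, -0.61, -0.75 and -0.61 in embryos, and its adult scores ran from -0.77 to 2.05 with a median of -0.35. Evx1, Foxd3 and Otx2, all with islands between 4837 and 8540 bases upstream, were higher after differentiation than before. Otx2, a factor of the forebrain and of early embryos, scored -0.24, -0.68 and -0.53 before and 0.26, -0.045, 0.93, 1.07 and 0.42 after, a difference of 1.01 (adjusted p = 0.00707, and 0.0414 without J1). Foxd3, which ES cells need to stay undifferentiated, scored -0.20, -0.69 and -0.33 and 0.25, 0.33, 0.88, 0.84 and 0.21, a difference of 0.91 (adjusted p = 0.00504, and 0.0434 without J1). Over the list, 5 islands were called higher and 1 lower after differentiation, where 3.51% and 1.92% of all islands were. With 1 SD common to all arrays these counts were 3 and 0. With normexp they were 0 and 0, so that none of these calls held there. In the processed table, which includes the doubtful J1 values, they were 0 and 9. Otx2 and Foxd3 each have a second island, nearer to the start, and against adult tissue these were not called, with differences of 0.15 and 0.14 (adjusted p = 0.385 and 0.603). Gata2 and Gata6, factors of blood and of endoderm, were lower in embryos than in adult tissue. Gata2 scored -0.24, -0.24, -0.12, -0.019 and 0.078 in embryos against at least 0.41, a difference of -1.20 (adjusted p = 0.00106). Gata6 scored -0.23, -0.71, -0.42, -0.60 and -0.37 against a range of -0.51 to 2.37 in adult tissue, with overlap. Tbx2 and Tbx4 differed by -1.17 and -1.34 in the same direction.

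The other lists were smaller, and some share genes with the first. Their counts are to be read against the 23.2% of all islands called in this comparison: the neural, imprinted, housekeeping, muscle, liver and gut and pluripotency lists, with 20% to 27.3% called, lay near that share. Of 26 islands of blood and immune genes, 8 were higher and 1 lower in differentiated ES cells than in adult tissue, with a median difference of 0.14 and 34.6% called. With 1 SD common to all arrays the median was 0.013. The interleukin-12 receptor chain Il12rb2 scored 0.91, 0.084, 1.68, 1.10 and 1.26 against at most 0.25 in adult tissue, and the interleukin-17 receptor Il17rb 1.59, 0.53, 0.63, 1.37 and 1.53 against at most 0.35. The island of Pax5, the factor of B cell identity, that lies 223 bases upstream scored 1.57, 1.44, 1.32, 1.39 and 1.23 against at most 1.06, and Il13, a cytokine of helper T cells, 1.84, 1.12, 1.40, 1.66 and 1.51 against at most 0.97. A second island of Pax5 was not called, with a difference of 0.30 (adjusted p = 0.267). In these 4 islands the lowest culture was above the highest adult array except in Il12rb2, where retinoic acid treated cells lay within the adult range. Of 23 neural islands 5 were higher and 0 lower, among them Cacng2, a partner of AMPA receptors, which scored 0.98, -0.049, 0.56, 1.10 and 1.44, and the dopamine receptor Drd5, which scored 1.79, 0.95, 1.30, 2.03 and 1.71. Of 10 imprinted islands 2 were lower and 0 higher, Mcts2 and Gnas, while Trappc9 kept an adult mean of 3.19 and a culture mean of 2.88 at 1 of its islands. The promoter islands of Igf2, a growth factor, had adult means of -0.22 and -0.12 and were not called in this comparison. Of 5 germline islands Tdrd1 and Tuba3a fell by 0.65 and 0.53 (adjusted p = 0.0136 and 0.0448) and 0 were higher, so that 40% were called, with a median difference of -0.53. Of these islands 4 are among the 46 promoter islands above 0.75 on every adult array. There 25 of 46 were called lower, with a median of -0.52, so the fall was not particular to the germline list. Of 20 housekeeping islands 3 were higher and 1 lower, and 2 of these 4, Rps6kb2 and Rps6ka5, belong to protein kinases rather than to ribosomal proteins. Of 11 islands of muscle genes 2 were higher, Nkx2-5 and Hand1, and 1 lower, Hand2, which like Hand1 is a factor of the heart and limb. Of 8 islands of liver and gut genes 2 were higher and 0 lower, among them Cyp24a1, which breaks down vitamin D and scored -0.19, 0.15, 0.42, 0.39 and 0.10 against at most -0.12. Of 4 pluripotency islands 1 was lower, that of Jarid2, a partner of Polycomb repressor 2, which scored -0.30, -0.44, -0.55, -0.51 and -0.41 against a range of -0.26 to 0.21. In Hand2 and Jarid2 the scores were below 0 in all cultures.

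Sequence features were also read beside the calls. Of the 1044 windows, 122 belong to islands called higher and 63 to islands called lower in differentiated ES cells against adult tissue. The median was 24 CG in the first and 31.0 in the second, with observed over expected ratios of 0.771 and 0.900. CCAAT was found in 27.9% and 44.4%, GGGCGG in 66.4% and 77.8%, and CCGGAAG in 8.20% and 15.9%. Islands called higher thus had the poorer promoters in CG and in these letters. Trpm6, called higher, had 9 CG in its window of 300 bases and follows that order, whereas Lekr1, called higher with 33, and Tuba3a, called lower with 12, do not. These values are a description of unequal groups of windows with no test.

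The pancreatic lines held the most high promoter islands of all samples. Of 798 promoter islands below 0 on every adult array and in sorted β cells, 27 exceeded 0.75 in Min6 (3.38%) and 38 in αTC (4.76%), 15 of them in both. Over all autosomal islands the shares were 3.90% and 6.02%. There was 1 array of each, so that these are values with no test. Dmrta2, a factor of the cerebral cortex whose island begins 32 bases from the start, scored -0.47 in β cells, 2.00 in Min6 and 1.59 in αTC. Ccnd2, a cyclin of the G1 phase, scored -0.17, 1.65 and 1.13. Slc22a21, a carnitine transporter, scored -0.56, 1.45 and 1.37, and Tmem132e -0.22, 1.73 and 0.97. On the differentiated ES cell arrays Dmrta2 scored -0.44, 0.25, -0.52, -0.57 and -0.40 and Ccnd2 -0.80, -0.91, -0.25, -0.42 and -0.40, all below both lines. Neurod1, a factor of endocrine and neural cells and the only listed marker in the class, scored -0.11 in β cells, -0.38 in Min6 and -0.30 in αTC, within its adult range of -0.90 to 0.29.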

How the data were processed

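DNA bound by the methylcytosine antibody (Cy5) and input DNA (Cy3) shared each 2-colour Agilent array, so a positive value is enrichment in the bound fraction. The deposited scanner files hold intensities and the scanner's log10 ratio of red over green after its own background and dye correction; the table the authors processed holds a further score per probe, used as an alternative. Control and flagged probes were left out, 492 probes without a position as well, and log10 ratios were brought to mean 0 and SD 1 on each array. Probe classes came from 1 scanner file, and their genome build is not given in the sources used here. Gene names were brought up to date through RefSeq (2327 islands by accession, 40 by symbol, 17 by synonym, 10 kept as written).

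Differences were tested with limma 3.58.1 in R 4.3.3 on island scores, in 1 fit of the 4 groups adult, embryo, undifferentiated and differentiated ES cells, in a fit with teratomas added and by an F test over 8 tissues. P-values were adjusted by Benjamini-Hochberg over all 13616 islands. The pipeline was tested on simulated data. Nothing in the labels says that arrays of a tissue came from separate animals beyond their sex, so p-values measure the spread between these samples. Named islands, 1 a gene, were those with the largest difference at adjusted p under 0.05 and no overlap of arrays (8 higher and 6 lower for differentiated ES cells against adult tissue, 3 and 3 elsewhere), the 6 highest and 4 lowest in adult tissue, up to 6 gained islands, 4 of the pancreatic lines and up to 4 called members of each gene list. The islands and lists were chosen with earlier results of these data known. The number of arrays limits the precision. A result that the naming rule selected among islands higher in embryos is not reported here.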

Additional observations from a re-analysis of the deposited data

Results flagged for a closer look

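In 49 named islands, 98 groups of 5 arrays were examined for a sample far from the others, and 6 were flagged, where chance flags about 1 in 20 groups. Among the differentiated cultures the retinoic acid array stood apart in 3 islands: Ankrd50, a factor of endosomal recycling, with 3.24 against 2.43 for the next array, Dmrta2 with 0.246 against -0.395, and Pcdha10 with 0.692 against 1.71. Mbd1 was low on the first endoderm array, with 0.478 against 0.900. Rab3a was high in embryoid bodies, with 0.818 against 0.226. Tuba3a was low in the embryo of 8.5 dpc, with 3.17 against 3.60.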

How the results depend on the processing

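Of 623 refits of the named differences, 530 kept their side of the threshold, 93 lost it and 0 reversed. Counts of called promoter islands moved more. Differentiated ES cells against adult tissue (476) gave 311 with 1 SD common to all arrays, 251 with normexp, 205 in the authors' processed table, 290 with at least 5 probes, 315 with the slide as a block, 206 over the 908 islands with all probes PROMOTER, and 368 to 499 leaving out 1 array. Undifferentiated ES cells against adult tissue (29) gave 0, 0, 242 and 16 under the first 4 settings, 0 with the methods' t-test, 0 with the scan day as a block, 16 over all-PROMOTER islands and 0 to 158 leaving out 1 array. Embryos against adult tissue (193) gave 15 with normexp, 66 in the processed table, 125 with island medians, 1 with the slide as a block, 94 with it as a random block, 0 with the scan day, 93 over all-PROMOTER islands and 106 to 176 leaving out 1 array. Differentiated against undifferentiated ES cells (100) gave 30 with a common SD, 6 with normexp, 194 in the processed table, 66 with medians, 65 with at least 5 probes, 0 with the t-test, 15 with the slide, 41 over all-PROMOTER islands and 50 to 177 leaving out 1 array. The 242 and 194 from the processed table rest in part on its values for the array labelled J1, which correlated by at most 0.133 with those of any other array. Differentiated ES cells against embryos (397) gave 98 with normexp, 171 in the processed table, 253 with at least 5 probes, 10 with the slide, 56 with the scan day, 192 over all-PROMOTER islands and 306 to 452 leaving out 1 array. Teratomas (1) gave 2 with normexp, 0 with bright probes alone, 3 with probes kept on all arrays, 2 with the t-test, 0 over all-PROMOTER islands and 1 to 2 leaving out 1 array. The adult tissues (1) gave 0 with normexp, the processed table, medians, the methods' test, all-PROMOTER islands and the replicate number as a block, and 0 to 1 leaving out 1 array. The labels tie replicate numbers to no shared animal or day, and over 28 pairs of tissues the correlation of deviations ran from -0.335 to 0.549, with 12 above 0.1, so the number was not taken as a pairing; in brain, kidney, liver, lung, muscle and spleen number 1 does mark a common scan day. The share below 0 in all adult arrays (35.0%) became 18.1% with a common SD, 29.0% with normexp, 46.6% in the processed table, 43.3% with bright probes, 28.6% with medians, 42.2% with at least 5 probes and 25.6% over all-PROMOTER islands, and 35.1% to 37.8% leaving out 1 array. The share above 0.75 (1.92%) became 0.835% with normexp, 1.30% in the processed table, 1.13% with bright probes, 0.744% with at least 5 probes and 4.52% over all-PROMOTER islands, and 1.92% to 2.01% leaving out 1 array. The 16 gained islands became 4 with a common SD, 8 in the processed table, 10 with bright probes, 8 with at least 5 probes, 7 over all-PROMOTER islands, 28 at a threshold of 0.5, 6 at 1 and 13 to 16 leaving out 1 array. The smaller island counts at 5 probes, all-PROMOTER and in the processed table rest on fewer islands. The common SD came with centring on the median of each array, which moves the point of 0. Beyond this the causes were not tested. Normexp on median signals, slide as a random block, scan day, ties counted, autosomes alone and the fit without J1 were chosen after seeing the data. Normexp on mean signals was not run, since 16 files used here hold no means, nor was the slide as a block for teratomas and tissues, where it cannot be estimated. Signal over background, 1.54 to 5.59 in the bound channel, limits low scores.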
